A study of Homo sapiens with 31 samples.

Results

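The comparison followed MCF10A cells from 9 to 12 h after release into full medium with vehicle, and used the 3 samples labelled 12h DMSO against the 3 labelled 9h DMSO. These 6 samples, identified by their labels, are 6 of 31 in the series, and a positive change below is higher at 12 h. MCF10A is a breast epithelial line that is not transformed. Cells of every group were held without serum, EGF and insulin for some days, in medium that kept hydrocortisone and cholera toxin. The samples of both groups were then given full medium with horse serum, EGF and insulin and with 0.1% DMSO for 9 or 12 h. The palbociclib groups used here, with 3 samples at 9 h and 3 at 12 h, had the same release with 1 µM palbociclib, an inhibitor of CDK4 and CDK6. The DMSO groups at 6 and 15 h, with 3 samples each, gave the steps on either side. The replicates carry numbers, but the labels do not say that they were separate cultures, so the p-values measure the spread between these samples, which may be technical.

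Levels are given in CPM, the usual depth-scaled count with TMM scaling, and CPM values do not compare genes of different length. Depth ran from 12454333 to 19690215 gene counts in the 6 libraries, with a mitochondrial share of 3.11% to 3.666%. On the first principal component of these libraries, which held 52.1% of the variance, the 9 h samples scored −20.87 to −15.79 and the 12 h samples 18.7 to 19.47. The next component, with 18.5%, placed replicate 2 of both times at −14.62 and −12.46 and replicate 3 at 15.98 and 11.99. Replicates of a group differed by more than counting noise. The line's basal epithelial keratins and laminins were abundant, and CD3E, HBB, HBA1 and CDH5, markers of blood and endothelium, had no count in any of the 6 libraries. Of that same list, CD14 had 138 to 374 counts in each of them, KDR 5 to 17 and PECAM1 3 to 7. Markers of other types were detected too. The luminal keratin genes KRT8 and KRT18 had 4309 to 7081 and 2501 to 4336 counts in each library, and the mesenchymal marker VIM 6353 to 11911. The basal keratin gene KRT14 had 2529 to 7207.

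A cell that leaves quiescence must pass from G1 into S phase. Cyclin D with CDK4 or CDK6, and later cyclin E with CDK2, phosphorylate the retinoblastoma protein, which then releases E2F factors from repression. E2F factors raise transcription of the genes for cyclin E, for the loading and firing of replication origins, for the replication fork and for deoxynucleotide supply. Genes for mitosis follow later, through B-Myb, FOXM1 and the MuvB complex, which acts at promoter elements called CHR. In resting cells the DREAM complex, built on the same MuvB core with an E2F and a pocket protein, keeps both sets of genes low.

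Because the mitotic list had the largest median rise of the lists examined, the 250 bases before the start of its 4 risers with the smallest p-values are shown first, as RefSeq gives them on GRCh38.p14. They are written 5′ to 3′ on the gene's strand, and capitals mark the letters searched for. These were CCAAT, the CHR letters TTTGAA, and the E2F letters TTTCGCGC, TTTGGCGC, TTTCCCGC and TTTGCCGC, each on both strands. LMNB1 encodes lamin B1 of the nuclear lamina (chr5:126776373-126776622, plus strand), NCAPG (chr4:17810729-17810978, plus strand) and NCAPH (chr2:96335516-96335765, plus strand) encode condensin I subunits, and ANLN encodes anillin of the contractile ring (chr7:36389612-36389861, plus strand).
LMNB1: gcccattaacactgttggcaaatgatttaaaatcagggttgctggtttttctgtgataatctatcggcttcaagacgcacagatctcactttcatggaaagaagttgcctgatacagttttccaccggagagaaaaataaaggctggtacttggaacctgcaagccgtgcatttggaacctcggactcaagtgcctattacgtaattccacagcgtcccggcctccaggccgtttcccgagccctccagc
NCAPG: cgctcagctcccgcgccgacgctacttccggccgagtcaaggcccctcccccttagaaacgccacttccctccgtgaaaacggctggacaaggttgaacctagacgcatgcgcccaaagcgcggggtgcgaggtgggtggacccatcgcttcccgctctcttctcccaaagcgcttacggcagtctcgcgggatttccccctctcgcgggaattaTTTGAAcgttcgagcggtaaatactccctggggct
NCAPH: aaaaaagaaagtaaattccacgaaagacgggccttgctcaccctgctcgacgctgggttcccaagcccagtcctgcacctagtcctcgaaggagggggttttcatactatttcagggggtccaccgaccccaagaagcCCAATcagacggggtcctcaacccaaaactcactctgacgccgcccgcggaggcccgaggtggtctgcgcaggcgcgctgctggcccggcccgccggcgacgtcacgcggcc
ANLN: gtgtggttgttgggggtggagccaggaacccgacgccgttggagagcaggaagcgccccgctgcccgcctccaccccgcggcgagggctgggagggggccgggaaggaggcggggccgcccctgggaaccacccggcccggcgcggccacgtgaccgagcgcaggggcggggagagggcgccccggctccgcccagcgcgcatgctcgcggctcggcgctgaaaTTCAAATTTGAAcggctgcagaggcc
NCAPG held TTTGAA 29 bases before its start. In ANLN the letters TTCAAA and TTTGAA abutted, 20 and 14 bases before the start. NCAPH held CCAAT 107 bases before the start, and LMNB1 held none of the letters. Of the 46 mitotic genes with an entry in the promoter table, 23 (50.0%) held the CHR letters in these 250 bases, against 13.3% of all 35116 promoters. CCAAT was in 32 of them (69.6%), against 32.0% of all promoters, and E2F letters in 2 (4.35%), against 2.79%. Other lists varied widely for CCAAT, with 83.3% of sterol, 75.0% of polyadenylated histone and 56.5% of licensing and firing genes. The share was 8.33% of SR splicing factor genes and 7.69% of YAP and TGF-beta target genes. Lists were counted by the first entry of each gene, and all promoters by every entry.

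The replication genes are shown beside them by 1 promoter from each of 4 lists, the riser with the smallest p among those that held E2F letters, so that these were picked for the match. E2F1 (chr20:33686386-33686635, minus strand) encodes an activating E2F and MCM7 (chr7:100101398-100101647, minus strand) a subunit of the replicative helicase. PCNA (chr20:5126623-5126872, minus strand) encodes the sliding clamp of the fork, and UHRF1 (chr19:4909251-4909500, plus strand) a factor that brings DNMT1 to replicated DNA.
E2F1: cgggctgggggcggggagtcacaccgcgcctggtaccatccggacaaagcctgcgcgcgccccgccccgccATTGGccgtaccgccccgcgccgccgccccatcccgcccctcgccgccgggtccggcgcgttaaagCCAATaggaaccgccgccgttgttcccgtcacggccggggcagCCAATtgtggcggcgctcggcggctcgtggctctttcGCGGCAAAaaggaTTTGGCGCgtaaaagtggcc
MCM7: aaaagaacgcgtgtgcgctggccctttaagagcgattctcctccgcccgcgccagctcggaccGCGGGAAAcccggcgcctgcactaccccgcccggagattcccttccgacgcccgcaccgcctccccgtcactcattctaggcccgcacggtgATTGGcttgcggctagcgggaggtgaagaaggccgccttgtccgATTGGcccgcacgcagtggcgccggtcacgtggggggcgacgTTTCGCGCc
PCNA: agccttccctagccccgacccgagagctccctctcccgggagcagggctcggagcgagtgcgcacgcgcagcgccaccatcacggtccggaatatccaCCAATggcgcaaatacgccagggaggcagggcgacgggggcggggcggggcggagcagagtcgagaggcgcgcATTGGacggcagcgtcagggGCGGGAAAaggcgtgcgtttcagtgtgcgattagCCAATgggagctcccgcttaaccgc
UHRF1: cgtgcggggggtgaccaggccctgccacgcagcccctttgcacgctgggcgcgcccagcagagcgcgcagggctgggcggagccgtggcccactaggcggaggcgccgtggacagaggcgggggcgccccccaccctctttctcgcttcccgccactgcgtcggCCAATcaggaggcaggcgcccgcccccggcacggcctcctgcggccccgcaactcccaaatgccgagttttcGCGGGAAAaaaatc
The E2F letters closest to the start lay 12 bases before it in E2F1, 1 base in MCM7, 51 bases in PCNA and 6 bases in UHRF1. None of the 4 windows held the CHR letters. Over whole lists, E2F letters were in 6 of 23 licensing and firing genes (26.1%), 6 of 25 fork genes (24.0%) and 5 of 11 E2F and pocket protein genes (45.5%). They were also in 3 of 14 chromatin assembly (21.4%) and 1 of 21 recombination genes (4.76%), and in 2 of 5 mismatch repair, 3 of 10 cohesin and 3 of 12 polyadenylated histone genes. CHR letters were in 0 of the 23 and 0 of the 25, and in 0 to 2 genes of each of the E2F, chromatin assembly, recombination, mismatch repair, cohesin and histone lists. A match says that these letters stand in the window and nothing about binding.

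Between 9 and 12 h, 1430 genes rose and 965 fell of 15787 tested, by edgeR's quasi-likelihood test at a Benjamini-Hochberg adjusted p below 0.05. These were 9.06% and 6.11% of the genes tested, the background for the counts below. Rises of at least 2-fold numbered 262 (1.66%) and falls 65 (0.412%), and the median over all genes was −0.004 on the log2 scale. The 3 libraries of each time did not overlap for 1402 of the genes that rose and 933 of those that fell. The share over all genes tested was not counted, so non-overlap here and in the lists adds no support beyond the calls. The lists of licensing, fork, recombination, chromatin assembly and mitotic genes had medians between 1.02 and 1.62, and a list's count below is of members tested, since the low-count filter could keep a gene for 1 group alone. The lists held 262 of the 1430 genes that rose and 44 of the 965 that fell. In bulk RNA, more cells in a phase and more RNA per cell cannot be told apart.

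**Figure D1:**
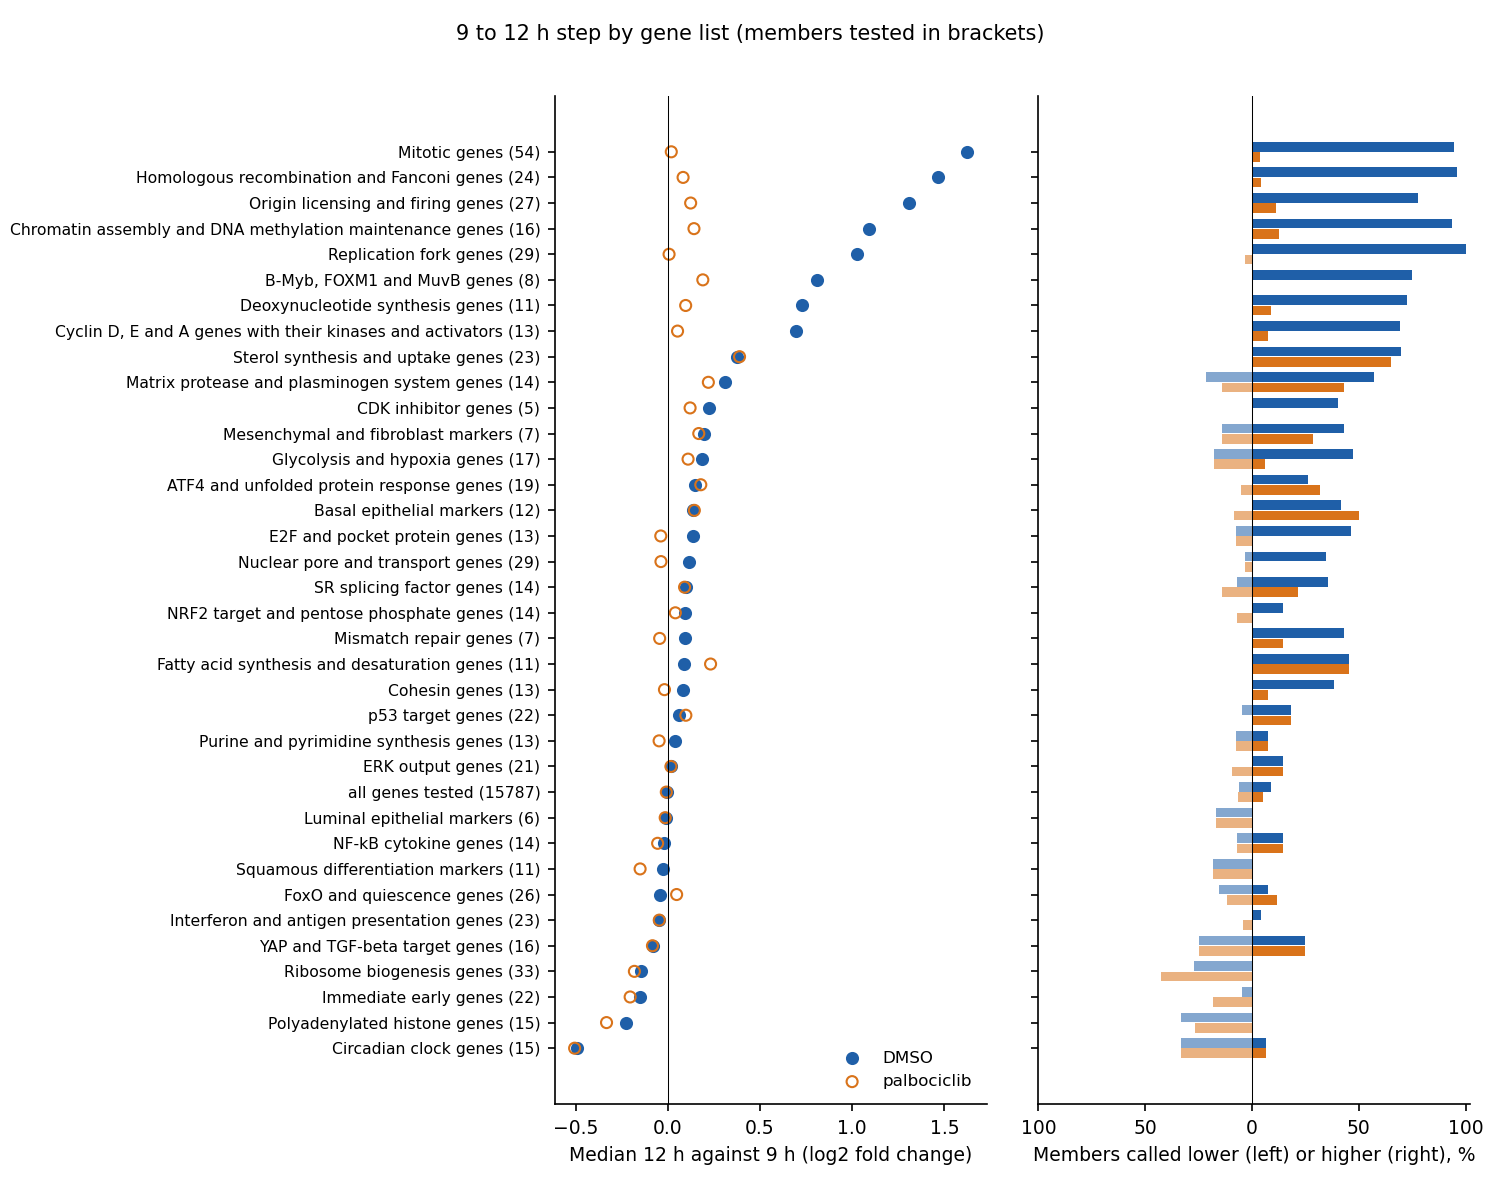
Each row is a gene list with its number of tested members. Left, the median log2 fold change from 9 to 12 h with DMSO (filled) and with palbociclib (open); right, the percentage of members called higher or lower at each treatment. The fork list lies at 1.02 with DMSO and 0.01 with palbociclib and the mitotic list at 1.62 and 0.02, while the sterol list has medians of 0.375 and 0.389.

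Among the E2F and pocket protein genes, 6 of 13 rose and 1 fell, with a median of 0.14. E2F1 stood at 9.87, 9.34 and 8.13 CPM at 9 h and 35.3, 32.3 and 29.8 CPM at 12 h. The 12 h samples were all higher than the 9 h samples, a log2 fold change of 1.83 ± 0.11 (SE, adjusted p = 9.8e-14). E2F2, another activating E2F, started lower, at 0.933, 1.01 and 1.10 CPM at 9 h and 8.61, 9.02 and 9.26 CPM at 12 h, and rose by 3.13 ± 0.23 (SE, adjusted p = 4.5e-12). E2F7 and E2F8 encode atypical E2Fs that repress E2F targets. E2F7 rose by 0.93 ± 0.09 (SE, adjusted p = 1.2e-09), from 22.3, 21.6 and 25.8 CPM to 44.2, 43.4 and 44.9 CPM. E2F8 had 12 counts summed over the 9 h libraries and 141 over those of 12 h, and rose by 3.51 ± 0.44 (SE, adjusted p = 4e-07). RBL1, which encodes the pocket protein p107, rose by 1.07 ± 0.08 (SE, adjusted p = 2.4e-12), and RB1 itself by 0.29 ± 0.07 (SE, adjusted p = 0.0056). E2F5, a repressive E2F, fell by 0.42 on the log2 scale (SE 0.14, adjusted p = 0.036), a call lost without replicate 1 of 9 h, without replicate 1 or 3 of 12 h, or in the compared groups alone (adjusted p = 0.052). The genes of E2F3 (0.12), E2F4 (−0.14), E2F6 (−0.06), both dimerization partners TFDP1 (0.14) and TFDP2 (0.04), and RBL2 (0.05) did not pass the test.

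Among the cyclin, kinase and activator genes, the 4 that did not rise act early in G1. CCND1 (−0.16, adjusted p = 0.31), CCND2 (−0.38, adjusted p = 0.24), CDK4 (0.01, adjusted p = 0.98) and CDK6 (−0.11, adjusted p = 0.48) did not pass the test. In a fit of the compared groups alone CCND1 was called lower, at −0.15 (adjusted p = 0.032). The other 9 of 13 members rose, with a median of 0.70 over the list. CCNA2, cyclin A2 of S phase and G2, was measured at 2.07, 2.49 and 2.52 CPM at 9 h and 11.9, 10.1 and 11.3 CPM at 12 h and the groups were far apart. Its log2 fold change was 2.22 ± 0.17 (SE, adjusted p = 1.3e-11). CCNE1, cyclin E1, stood at 5.93, 7.61 and 6.63 CPM at 9 h and 15.5, 12.4 and 13.8 CPM at 12 h, a rise of 1.03 ± 0.14 (SE, adjusted p = 1.6e-06). CCNE2 rose by 1.27 ± 0.16 (SE, adjusted p = 3.3e-07), with 37.1% of its exonic bases shared with another gene. CDC25A, the phosphatase that activates CDK2, rose by 1.38 ± 0.11 (SE, adjusted p = 1.5e-11), and CDK2 by 0.85 ± 0.07 (SE, adjusted p = 2.1e-10). FBXO5, whose product EMI1 holds back the anaphase-promoting complex, rose by 1.12 ± 0.14 (SE, adjusted p = 3.3e-07). Smaller rises were seen for CKS1B (0.69), CCND3 (0.35) and SKP2 (0.31). Of the 5 tested CDK inhibitor genes 2 rose, with a list median of 0.22. CDKN2C, p18 of the INK4 family, rose by 1.08 ± 0.22 (SE, adjusted p = 0.00049), and CDKN1A, p21, by 0.22 ± 0.08 (SE, adjusted p = 0.044), where the libraries of both times overlapped and the call was lost without 9 h replicate 1 or 3 or without 12 h replicate 2 or 3, and also with size factors, library totals, no filter or exon length trends removed (adjusted p of 0.056, 0.057, 0.084 and 0.057). CDKN1B, p27, changed by 0.04 (adjusted p = 0.85) and CDKN1C, p57, by −0.20 (adjusted p = 0.38), both short of the threshold. CDKN2A and CDKN2B had too few counts to be tested.

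**Figure D2:**
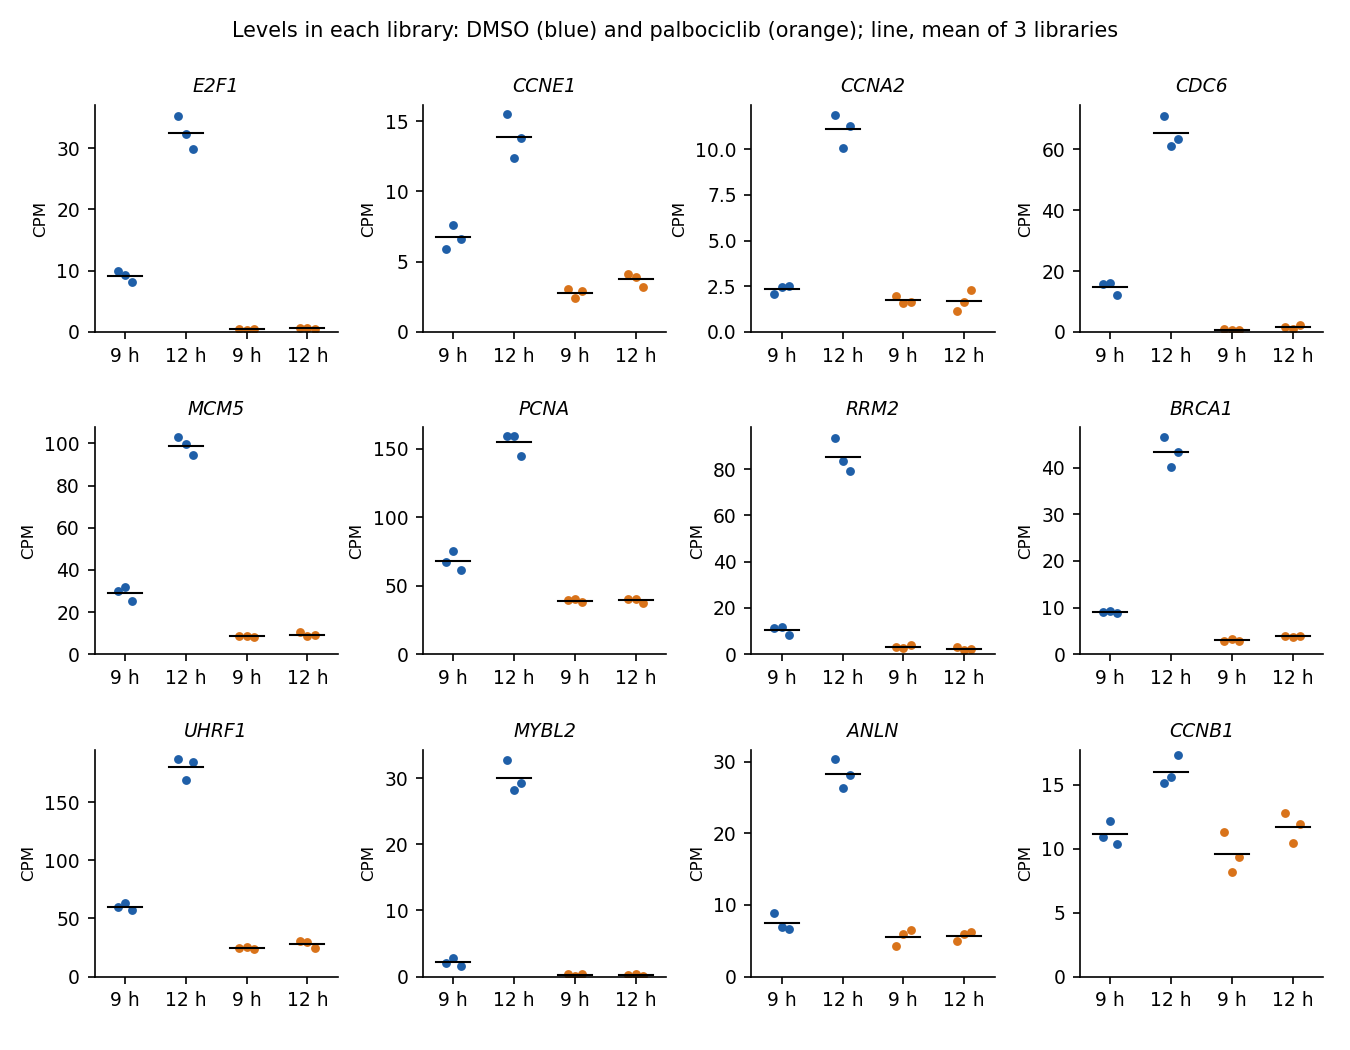
Levels of 12 genes in CPM (linear axes from 0) in each of 3 libraries at 9 and 12 h with DMSO (blue) and palbociclib (orange); the black line is the mean. With DMSO the 12 h points lie above the 9 h points for each gene, and with palbociclib both times lie near the floor for E2F1, CDC6 and MYBL2.

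Origin licensing and firing genes rose in 21 of 27 cases and fell in none, with a median of 1.31. CDC6, which loads the MCM helicase onto origins, was at 15.9, 16.0 and 12.2 CPM at 9 h and 71.0, 61.0 and 63.5 CPM at 12 h. Every 12 h sample was above every 9 h sample, a rise of 2.13 ± 0.10 (SE, adjusted p = 4.2e-16). MCM10, which helps to activate the helicase, went from 6.93, 8.12 and 6.08 CPM to 46.9, 40.4 and 40.8 CPM, a log2 fold change of 2.58 ± 0.12 (SE, adjusted p = 2.9e-16). CDC45, a part of the active helicase, rose by 2.66 ± 0.13 (SE, adjusted p = 2.1e-16). The 6 genes MCM2 to MCM7, which encode the helicase ring, all rose: MCM5 by 1.76 ± 0.08 (SE, adjusted p = 3.1e-17), MCM2 by 1.48 ± 0.08 (SE, adjusted p = 6.9e-15), MCM7 by 1.36 ± 0.07 (SE, adjusted p = 6.7e-15), MCM4 by 1.26 ± 0.06 (SE, adjusted p = 2e-16), MCM6 by 1.08 ± 0.08 (SE, adjusted p = 1.9e-12) and MCM3 by 0.96 ± 0.07 (SE, adjusted p = 1.3e-12). All 4 GINS subunit genes rose, by 1.31 to 1.93. Within the origin recognition complex the rise was uneven. ORC1 (1.98 ± 0.12, SE, adjusted p = 4.5e-14) and ORC6 (1.60 ± 0.12, SE, adjusted p = 8.7e-12) rose, and ORC2 (−0.01), ORC3 (0.11), ORC4 (−0.08) and ORC5 (−0.02) did not pass the test. The other 2 members that did not pass were DBF4 (0.28, adjusted p = 0.066), the activator of the CDC7 kinase, and TOPBP1 (0.12, adjusted p = 0.15). CDT1, the partner of CDC6 in loading, rose by 1.39 and GMNN, its inhibitor geminin, by 1.24.

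Each of the 29 fork genes rose, with a median of 1.02. CLSPN, claspin of the fork checkpoint, stood at 13.3, 12.2 and 10.7 CPM at 9 h and 51.4, 44.4 and 54.7 CPM at 12 h. Its rise was 2.04 ± 0.10 (SE, adjusted p = 5.1e-16), and that of KIAA0101 was 2.48 ± 0.21 (SE, adjusted p = 1e-10), a PCNA-binding factor with low counts and exons shared with other genes. PCNA, the clamp whose promoter is printed above, was at 67.4, 75.5 and 61.3 CPM at 9 h and 159.6, 159.6 and 145 CPM at 12 h, a rise of 1.18 ± 0.07 (SE, adjusted p = 3.8e-14). DSCC1 (1.60 ± 0.10, SE, adjusted p = 1.2e-13), a clamp loader subunit, and WDHD1 (1.25 ± 0.08, SE, adjusted p = 7e-13), which ties the polymerase α to the helicase, rose as well. Values ranged widely within complexes. In the RFC clamp loader RFC3 rose by 1.41 and RFC1 by 0.24, and among the replicative polymerases POLE2 rose by 1.51, POLA2 by 1.19, POLE by 0.61 and POLD2 by 0.31. The single-strand binding genes RPA1 (0.34), RPA2 (0.37) and RPA3 (0.57) were in the lower part of the range.

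Deoxynucleotide synthesis genes rose in 8 of 11 cases, with a median of 0.73. RRM2 (chr2:10122328-10131419 on GRCh38), the S phase subunit of ribonucleotide reductase, was at 11.1, 11.6 and 8.44 CPM at 9 h and 93.5, 83.5 and 79.3 CPM at 12 h. The 12 h samples were far above the 9 h samples, a log2 fold change of 3.02 ± 0.12 (SE, adjusted p = 2.3e-18). TK1, thymidine kinase, rose by 2.97 ± 0.17 (SE, adjusted p = 9e-15) from 1.60, 2.03 and 1.26 CPM to 13.6, 13.4 and 12.7 CPM. TYMS, thymidylate synthase, rose by 1.56 ± 0.13 (SE, adjusted p = 1.2e-10), with exons shared with another gene. RRM1, the other subunit of the reductase, rose less, by 0.82 ± 0.06 (SE, adjusted p = 1.3e-11). RRM2B, the p53-controlled form of the small subunit (0.10, adjusted p = 0.33), SAMHD1, which breaks down deoxynucleotides (0.18, adjusted p = 0.22), and DCTPP1 (0.08, adjusted p = 0.66) did not pass the test. The 13 purine and pyrimidine synthesis genes, which supply ribonucleotides, had a median of 0.04, with GMPS higher (0.26 ± 0.05, SE, adjusted p = 0.00068) and DHODH lower (−0.39 ± 0.10, SE, adjusted p = 0.0067).

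Homologous recombination and Fanconi genes rose in 23 of 24 cases, with a median of 1.47. EXO1, a nuclease that resects broken ends, was at 3.00, 4.21 and 3.39 CPM at 9 h and 39.2, 33.9 and 36.4 CPM at 12 h, a rise of 3.34 ± 0.14 (SE, adjusted p = 7.6e-18). BRCA1, which promotes the resection of broken ends, was at 9.00, 9.34 and 8.92 CPM at 9 h and 46.5, 40.2 and 43.3 CPM at 12 h, and the groups were well apart. Its log2 fold change was 2.25 ± 0.08 (SE, adjusted p = 2.3e-18), beside 2.47 ± 0.14 (SE, adjusted p = 6.9e-15) for the helicase gene BLM and 1.34 ± 0.07 (SE, adjusted p = 6.4e-15) for FANCI. RAD54L, a recombination factor, rose by 2.87 ± 0.32 (SE, adjusted p = 3.5e-08) at a few counts in each 9 h library. PALB2, which bridges BRCA1 and BRCA2, was the member that did not pass (0.07, adjusted p = 0.6). POLQ, the polymerase of end joining by short homology, is not on the list and was among the 15 largest rises by the naming rule (3.02 ± 0.20, SE, adjusted p = 2.8e-13). Of 7 mismatch repair genes, 3 rose, with a median of 0.09. Among them was MSH6 (0.51 ± 0.05, SE, adjusted p = 2.3e-09).

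Chromatin assembly and DNA methylation maintenance genes rose in 15 of 16 cases, with a median of 1.09. UHRF1 was at 59.7, 63.3 and 57.1 CPM at 9 h and 187, 169 and 184 CPM at 12 h, a rise of 1.58 ± 0.08 (SE, adjusted p = 3.2e-16). CHAF1A, the large subunit of the CAF-1 histone chaperone, rose by 1.58 ± 0.09 (SE, adjusted p = 8.5e-15), ATAD2 by 1.61 ± 0.07 (SE, adjusted p = 2e-16) and TONSL, which binds new histones behind the fork, by 1.43 ± 0.07 (SE, adjusted p = 5.1e-16). Of the histone chaperone genes, ASF1B rose by 2.50 ± 0.19 (SE, adjusted p = 1.3e-11), and ASF1A stood at 0.16 (adjusted p = 0.36). The histone genes detected in this poly(A) RNA were lower where called, with 0 of 15 higher, 5 lower and a median of −0.23. Replicative histone mRNAs end without a poly(A) tail, so these are mostly linker and other polyadenylated transcripts. H1FX fell by 0.65 (SE 0.10, adjusted p = 1.5e-05), H1F0 by 0.55 (SE 0.09, adjusted p = 2.6e-05) and HIST1H2AC by 0.57 (SE 0.13, adjusted p = 0.0015). Without replicate 1 of 9 h, 3 of these genes were called. Cohesin genes rose in 5 of 13 cases, with a median of 0.08, and in 3 without replicate 3 of 9 h, without replicate 1 of 12 h or without the low-count filter. The large rises in that list were those of 2 factors that act in S phase. ESCO2, the acetyltransferase that establishes cohesion, rose by 3.42 ± 0.26 (SE, adjusted p = 1.1e-11), and CDCA5, sororin, by 2.97 ± 0.15 (SE, adjusted p = 7.2e-16) from 2.47, 3.30 and 2.05 CPM to 22.4, 20.7 and 19.9 CPM. Of the ring subunits, SMC1A rose by 0.56 and SMC3 by 0.23, and RAD21 (0.08) and STAG2 (0.10) did not pass the test.

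Of the factors that activate mitotic genes, B-Myb and FOXM1 rose strongly. MYBL2 (chr20:43667019-43716496 on GRCh38), which encodes B-Myb, was at 2.00, 2.84 and 1.66 CPM at 9 h and 32.7, 28.2 and 29.3 CPM at 12 h. All 12 h samples were at least 28 CPM and all 9 h samples below 3, a log2 fold change of 3.74 ± 0.18 (SE, adjusted p = 2.3e-16). FOXM1 rose by 2.34 ± 0.18 (SE, adjusted p = 1.1e-11), with 15.9% of its exonic bases shared with another gene, and MYBL1, A-Myb, by 2.48 ± 0.18 (SE, adjusted p = 2.1e-12). MuvB core genes moved less. LIN54 (0.80 ± 0.08, SE, adjusted p = 1.1e-08), LIN9 (0.81 ± 0.11, SE, adjusted p = 1.5e-06) and RBBP4 (0.22 ± 0.05, SE, adjusted p = 0.001) rose, and LIN52 (0.40, adjusted p = 0.077) and LIN37 (−0.20, adjusted p = 0.67) did not pass. That made 6 of 8 members higher, with a median of 0.81.

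Mitotic genes rose in 51 of 54 cases and fell in none, with a median of 1.62, the largest of the lists. ANLN was at 8.93, 6.95 and 6.71 CPM at 9 h and 30.4, 26.3 and 28.2 CPM at 12 h, a rise of 1.91 ± 0.11 (SE, adjusted p = 9.7e-15), and LMNB1 at 26.2, 28.6 and 27.5 CPM at 9 h and 82.5, 73.5 and 79.4 CPM at 12 h, a rise of 1.51 ± 0.07 (SE, adjusted p = 2e-16). Condensin I genes rose strongly, NCAPH by 3.59 ± 0.20 (SE, adjusted p = 8.1e-15) and NCAPG by 2.80 ± 0.15 (SE, adjusted p = 4.6e-15), the latter with part of its exons shared. SMC2 (0.81) and SMC4 (0.97), the condensin ATPases, rose by less. SPC25, of the NDC80 complex, had the largest fold change. SPC25 (chr2:168834132-168913371 on GRCh38) had 4 counts in the 9 h libraries together and 81 in those of 12 h, a log2 fold change of 4.21 ± 0.44 (SE, adjusted p = 1.3e-08). SKA1, not on the list and part of a complex that holds kinetochores to microtubules, rose by 3.51 ± 0.20 (SE, adjusted p = 1.7e-14), from 0.800, 0.558 and 0.947 CPM to 8.87, 8.38 and 8.42 CPM. Some members rose less. CCNB1, cyclin B1, was at 10.9, 12.1 and 10.3 CPM at 9 h and 15.2, 15.6 and 17.3 CPM at 12 h, a rise of 0.51 ± 0.11 (SE, adjusted p = 0.00093). AURKA, a spindle pole kinase, rose by 0.49 ± 0.10 (SE, adjusted p = 0.001) and CCNB2 by 0.61 ± 0.18 (SE, adjusted p = 0.019), beside 2.00 ± 0.14 (SE, adjusted p = 1.7e-12) for CDK1 and 2.65 ± 0.19 (SE, adjusted p = 1.9e-12) for MKI67, the Ki-67 gene. The 3 members that did not pass were PTTG1, securin (0.10, adjusted p = 0.74), CENPE, a kinetochore motor (0.26, adjusted p = 0.19), and PSRC1 (0.37, adjusted p = 0.31). The mean of CCNB1 was 16.0 ± 1.13 CPM at 12 h, 23.2 ± 1.55 CPM at 15 h and 242 ± 16.3 CPM at 24 h (SD, n = 3, and 2 at 24 h).

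Over all genes, the largest rises by the naming rule were SPC25 (4.21), NEIL3 (4.13), MYBL2 (3.74), NCAPH (3.59), SKA1 (3.51), E2F8 (3.51), ESCO2 (3.42), EXO1 (3.34), E2F2 (3.13), RRM2 (3.02), POLQ (3.02), TK1 (2.97), CDCA5 (2.97), RAD54L (2.87) and SHCBP1 (2.87). Of these 15, NEIL3, SKA1, POLQ and SHCBP1 were on none of the lists. NEIL3, a DNA glycosylase, had 6 counts in all at 9 h and 112 at 12 h. In all, 124 of the 262 rises of at least 2-fold belonged to a list.

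The same 3 hours with palbociclib, in 6 libraries that share none with the vehicle step, changed 824 genes upward (5.22%) and 1059 downward (6.71%). Of these, 54 rose and 82 fell by at least 2-fold. The test of the difference between the steps called 272 genes (1.72%) higher with DMSO and 3 (0.019%) lower. Of the 1430 genes that rose with DMSO, 257 had a larger step by that test and 566 also rose with palbociclib. Of the others 7 fell with the drug and 857 were not called. The median step of the 1430 was 0.411 with DMSO and 0.213 with palbociclib. Of the 262 that rose by at least 2-fold, 152 (58.0%) had a larger step by that test. For the 2-fold rises the median step was 1.51 with DMSO and 0.204 with palbociclib. These genes were chosen by their DMSO step, a choice that by itself makes the DMSO medians larger. The test of the difference uses the same DMSO libraries, and both limits hold for the falls too. For falls the test called few differences. Of the 965 genes that fell, 2 fell more with DMSO and 1 fell less by the test of the difference. With palbociclib 589 of the 965 also fell, and the medians were −0.313 with DMSO and −0.277 with palbociclib. For the 65 that fell by at least 2-fold they were −1.37 and −1.15, and 0 of them differed by the test.

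**Figure D3:**
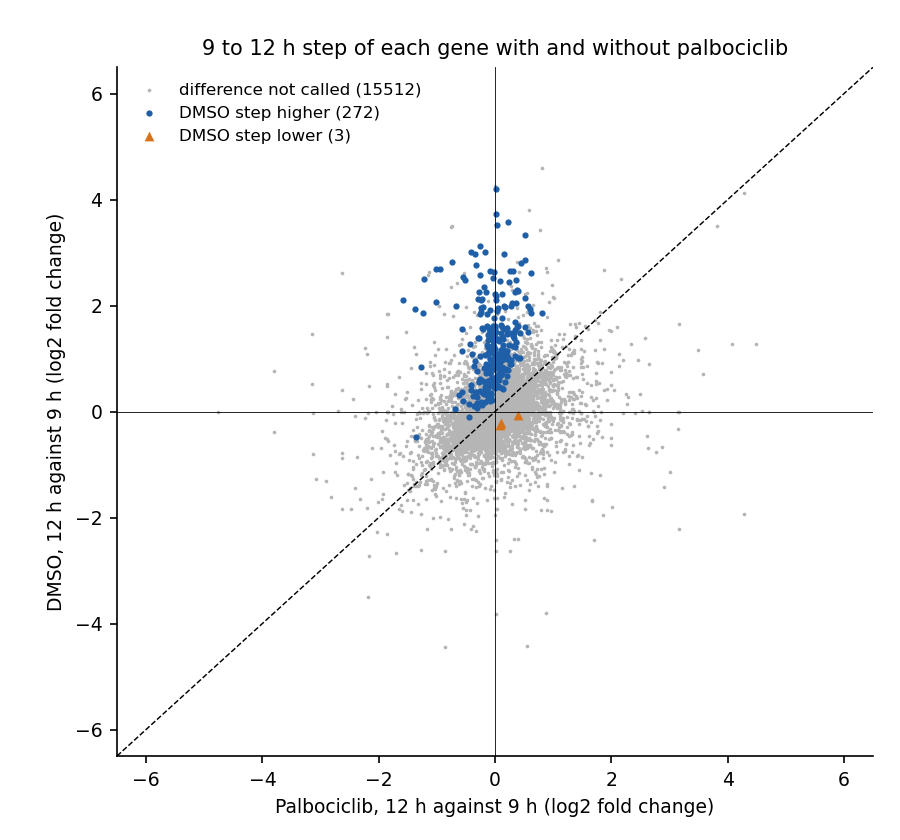
Each point is 1 of 15787 genes, with its log2 fold change from 9 to 12 h with palbociclib on the x axis and with DMSO on the y axis; the dashed line marks equal steps. The 272 genes with a higher DMSO step (blue) lie above the dashed line.

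By list, the difference was called for 26 of 29 fork genes, 38 of 54 mitotic, 17 of 27 licensing and firing, 17 of 24 recombination and 11 of 16 chromatin assembly genes. It was called for 6 of 13 cyclin, 6 of 11 deoxynucleotide, 4 of 8 B-Myb, FOXM1 and MuvB, 3 of 13 E2F, 2 of 7 mismatch repair and 2 of 13 cohesin genes. RRM2 stood at 3.14, 2.64 and 3.90 CPM at 9 h and 3.03, 1.95 and 2.44 CPM at 12 h with palbociclib, where the samples overlapped. Its step differed by 3.43 ± 0.27 (SE, adjusted p = 5.4e-10) between the treatments. PCNA differed by 1.17 ± 0.10 (SE, adjusted p = 5.3e-09), MCM5 by 1.65 ± 0.14 (SE, adjusted p = 1.3e-09), BRCA1 by 1.90 ± 0.17 (SE, adjusted p = 3.9e-09), ATAD2 by 1.60 ± 0.12 (SE, adjusted p = 5.3e-10) and ANLN by 1.87 ± 0.18 (SE, adjusted p = 2.6e-08). For genes close to 0 counts with palbociclib the ratio is poorly measured. E2F1 went from 0.449, 0.362 and 0.547 CPM to 0.574, 0.699 and 0.558 CPM with the drug, and the difference of its steps, 1.35 ± 0.42, did not pass the test (adjusted p = 0.15). CDC6 had 36 counts at 9 h and 72 at 12 h with palbociclib, a rise of 1.02 ± 0.32 (SE, adjusted p = 0.033) with a 12 h mean of 1.60 CPM against 65.2 CPM with DMSO, and its difference of 1.11 ± 0.36 (SE, adjusted p = 0.19) did not pass. MCM10 had 5 and 2 counts. Some members of these lists rose with the drug too, among them GINS2 by 0.63 ± 0.19 (SE, adjusted p = 0.03), LMNB1 by 0.56 ± 0.10 (SE, adjusted p = 0.00028), CHEK1 by 0.34 ± 0.09 (SE, adjusted p = 0.0085), MCM4 by 0.25 ± 0.07 (SE, adjusted p = 0.01) and CDC25B by 0.45 ± 0.09 (SE, adjusted p = 0.00053). POLE was the fork gene that fell with palbociclib, by 0.27 (SE 0.08, adjusted p = 0.013). The 3 genes with a lower DMSO step were ATG14 of autophagy, the demethylase gene KDM5B and MXD4, a MYC antagonist, with differences of −0.45, −0.34 and −0.32.

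The vehicle step was set against its neighbours by testing the difference of steps, since the 6 to 9 h and 12 to 15 h steps share libraries with it. Against the step before, 645 genes (4.09%) moved more upward and 709 (4.49%) less from 9 to 12 h. The step after was higher for 29 genes (0.184%) and lower for 116 (0.735%). Licensing and firing genes had medians of 1.05, 1.31 and 0.47 over the 3 steps, but against the step before 2 of 27 were called higher and 6 lower, with a median difference of −0.14. Against it 4 fork genes were higher and 2 lower, 3 recombination genes higher and 0 lower, and 3 chromatin assembly genes higher and 1 lower. The last step was smaller than the middle one in 17 of 27 licensing and firing genes, 9 of 29 fork genes, 9 of 24 recombination genes and 9 of 16 chromatin assembly genes. For mitotic genes the medians were 0.79, 1.62 and 1.40, and 14 of 54 moved more from 9 to 12 h than before, 3 less, while in the step after 9 moved less and 1 more. Deoxynucleotide genes had medians of 0.31, 0.73 and 0.65, with 6 of 11 higher than in the step before and 3 lower in the step after.

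**Figure D4:**
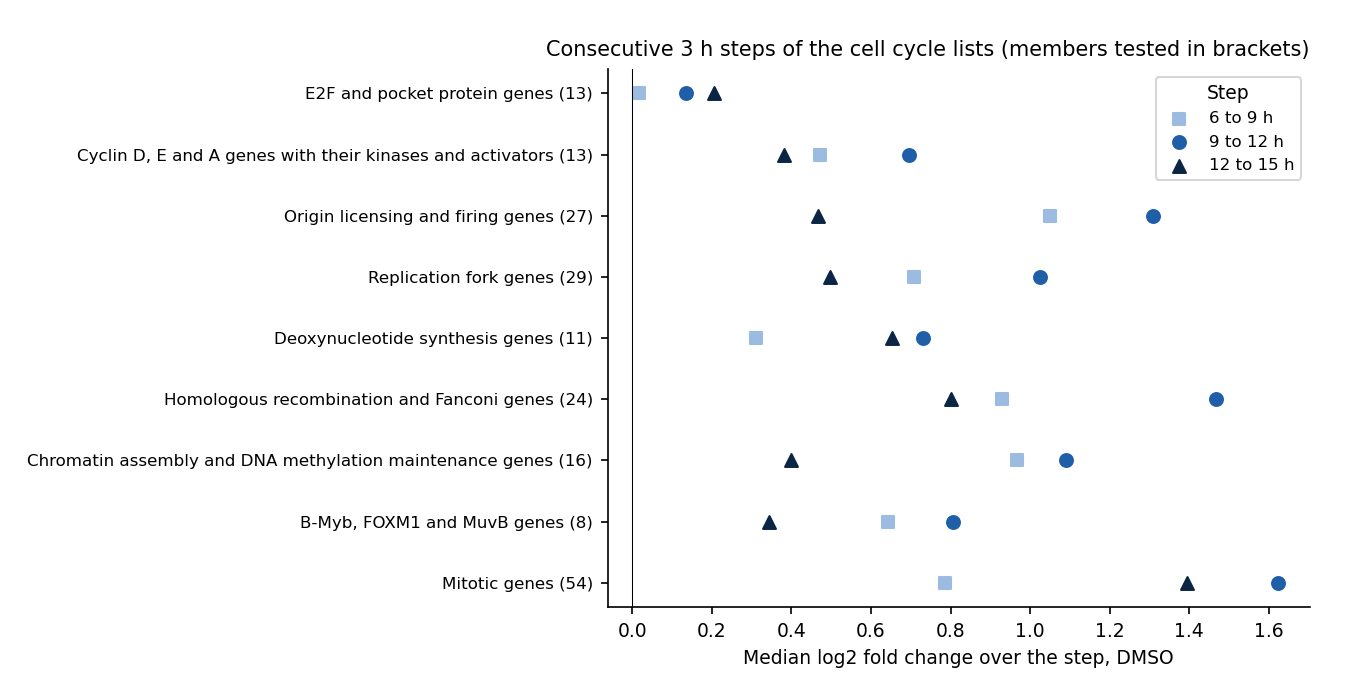
Median log2 fold change of 9 cell cycle lists with DMSO over the steps from 6 to 9 h (squares), 9 to 12 h (circles) and 12 to 15 h (triangles). The circle is the rightmost symbol for each list except the E2F and pocket protein genes, and the triangle comes close to it for the mitotic and deoxynucleotide genes.

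The single genes below include the 5 largest differences each way for each neighbouring step, so both directions were fixed by that choice. Noise in the shared libraries moves the 2 steps in opposite directions. DTL, an adaptor that targets CDT1 for destruction, had already risen by 5.03 from 6 to 9 h and rose by 2.14 from 9 to 12 h, a difference of −2.89 ± 0.23 (SE, adjusted p = 1.2e-09). FAM111B (−2.40 ± 0.25, SE, adjusted p = 1.1e-07) and CCNE2 (−2.38 ± 0.39, SE, adjusted p = 0.00011) slowed in the same sense, and so did CDC6 (−1.43 ± 0.27, SE, adjusted p = 0.0005) and E2F1 (−0.95 ± 0.26, SE, adjusted p = 0.018). CDH4, a cadherin gene, rose by 3.13 before 9 h and stood at 0.16 (adjusted p = 0.2) after, a difference of −2.97 ± 0.16 (SE, adjusted p = 4.8e-14), and SAMD12, which rose by 1.45 before 9 h, fell after, a difference of −2.45 ± 0.26 (SE, adjusted p = 1.6e-07). Other genes had steps near 0 or below it before 9 h. FOXM1 changed by −0.20 from 6 to 9 h, a difference of 2.54 ± 0.38 (SE, adjusted p = 2.9e-05), and BIRC5, survivin, by −0.38, a difference of 2.91 ± 0.54 (SE, adjusted p = 0.00047). SKA1 (3.06 ± 0.53, SE, adjusted p = 0.00021), SPC25 (4.98 ± 1.16, SE, adjusted p = 0.0049) and KLHL4 (2.93 ± 0.58, SE, adjusted p = 0.0011) also moved more from 9 to 12 h. The 9 to 12 h step of KLHL4 itself lost its call without any 1 library but 12 h replicate 3. That call was also lost without the filter, with a replicate block in all 31 libraries, in the compared groups alone and with DESeq2. After 12 h, MYBL2 went on rising by 1.65, less than before (−2.09 ± 0.26, SE, adjusted p = 6e-06), as did EXO1 (−2.19 ± 0.20, SE, adjusted p = 2.4e-08) and NCAPH (−2.19 ± 0.29, SE, adjusted p = 1.2e-05). The same difference for NEIL3 (−2.61, adjusted p = 0.015) was lost without 9 h replicate 1 or 3 or 12 h replicate 1 or 2, and that for SPC25 (−2.47, adjusted p = 0.046) without any 1 of the libraries of 9, 12 or 15 h, without the filter and with DESeq2. The values of CCNB1 were 0.53, 0.51 and 0.54 over the 3 steps.

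**Figure D5:**
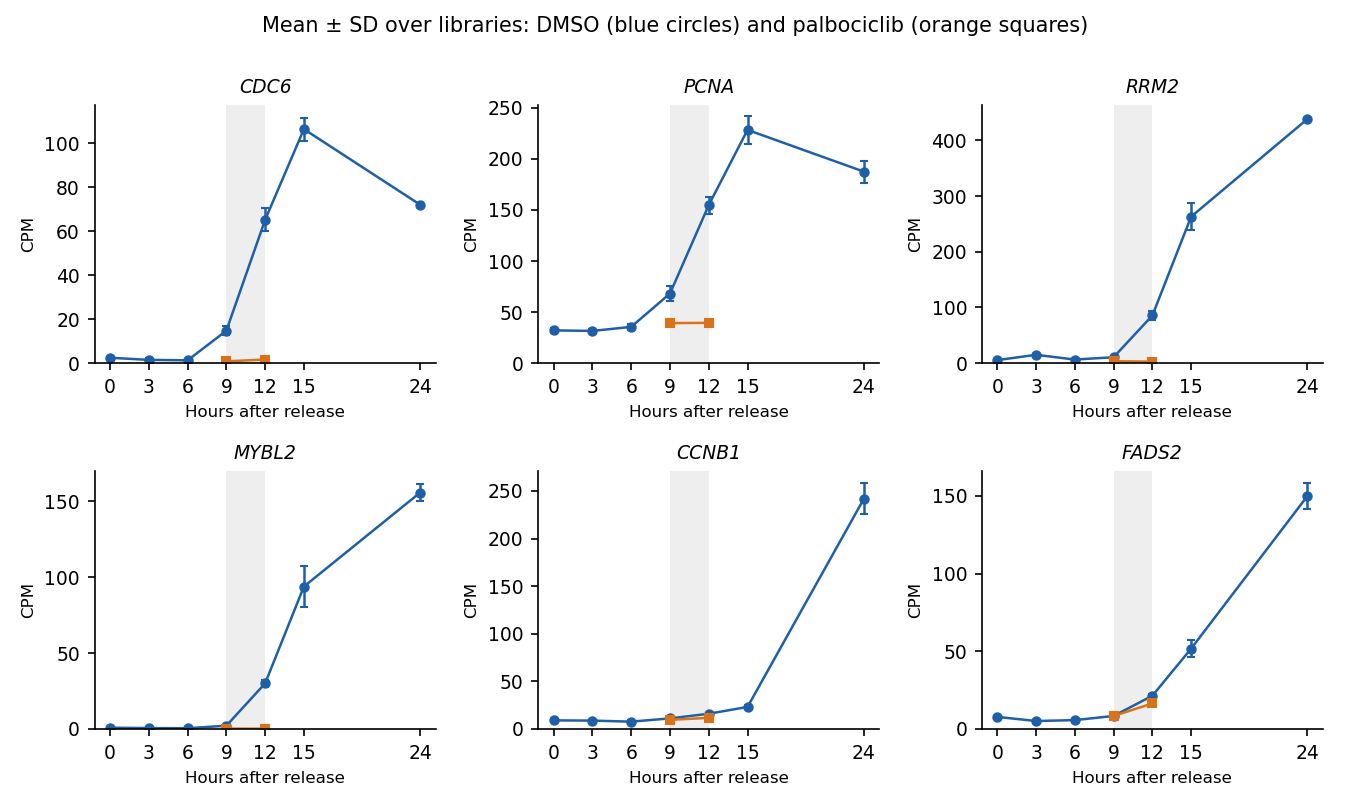
Mean ± SD in CPM of 6 genes over hours after release with DMSO (blue; n = 3, and 2 at 24 h) and at 9 and 12 h with palbociclib (orange; n = 3); the 9 to 12 h step is shaded. CDC6 and PCNA are highest at 15 h among the times sampled, RRM2 and MYBL2 turn upward in the shaded step, CCNB1 is high at 24 h, and FADS2 rises with both treatments.

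Of 23 sterol synthesis and uptake genes 16 rose with DMSO and 15 with palbociclib, with medians of 0.375 and 0.389, and 0 differed by the test of the steps. IDI1, of the mevalonate pathway, was at 50.2, 49.5 and 47.4 CPM at 9 h and 78.0, 75.8 and 75.4 CPM at 12 h, a rise of 0.64 ± 0.07 (SE, adjusted p = 1e-07), beside 0.70 ± 0.07 (SE, adjusted p = 9e-08) with the drug. STARD4, a cholesterol carrier, rose by 0.76 ± 0.08 (SE, adjusted p = 2.8e-08) and MSMO1 by 0.52 ± 0.06 (SE, adjusted p = 2.5e-07), and FDPS by 0.56 ± 0.07 (SE, adjusted p = 1.9e-07). Fatty acid genes rose in 5 of 11 cases with each treatment. FADS2 (chr11:61792980-61867354 on GRCh38), a desaturase gene, stood at 9.20, 7.82 and 8.13 CPM at 9 h and 21.0, 20.3 and 22.9 CPM at 12 h, a rise of 1.35 ± 0.11 (SE, adjusted p = 2.5e-11), and at 16.4, 15.6 and 17.4 CPM at 12 h with palbociclib, where the step was 0.96 ± 0.11 (SE, adjusted p = 3.6e-07). The difference between its steps was 0.39 (adjusted p = 0.48). FADS1 rose by 1.06 ± 0.07 (SE, adjusted p = 1.7e-13), SCD by 0.75 ± 0.08 (SE, adjusted p = 1.2e-08) and ELOVL6 by 0.33 ± 0.05 (SE, adjusted p = 1.3e-05). The list medians were 0.09 with DMSO and 0.23 with palbociclib.

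ATF4 and unfolded protein response genes rose in part, 5 of 19 with DMSO and 6 with palbociclib, where 1 fell, with medians of 0.15 and 0.18. HERPUD1, of the degradation machinery at the endoplasmic reticulum membrane, was at 29.8, 35.9 and 32.0 CPM at 9 h and 75.5, 66.4 and 66.1 CPM at 12 h, a rise of 1.08 ± 0.08 (SE, adjusted p = 1.9e-12), against 1.07 ± 0.07 (SE, adjusted p = 1.9e-11) with palbociclib. DNAJB9 rose by 0.78 ± 0.12 (SE, adjusted p = 9.1e-06), HSPA5, the chaperone BiP, by 0.41 ± 0.08 (SE, adjusted p = 0.00017) and TRIB3 by 0.44 ± 0.10 (SE, adjusted p = 0.0017). Among 14 SR splicing factor genes 5 rose and 1 fell, with a median of 0.10, and 3 rose without replicate 3 of 9 h, while 3 fell without the filter or in the compared groups alone. SRSF1 (0.46 ± 0.06, SE, adjusted p = 2.2e-06) and SRSF6 (0.46 ± 0.05, SE, adjusted p = 5.2e-08) led them, and their steps with palbociclib were 0.49 and 0.44. Nuclear pore and transport genes rose in 10 of 29 cases and fell in 1, with a median of 0.11. NUP107 (0.41 ± 0.07, SE, adjusted p = 2.5e-05) and NUP43 (0.36 ± 0.06, SE, adjusted p = 4.9e-05) had the larger rises there, and 6 rises were called without replicate 1 of 12 h and 5 without the low-count filter. The fall, of RANBP2 (−0.18, adjusted p = 0.045), was lost without 9 h replicate 1 or 3 or 12 h replicate 1 or 2, without the filter and in the compared groups alone.

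Matrix protease and plasminogen genes moved both ways, 8 of 14 higher and 3 lower with a median of 0.31. PLAU, urokinase, rose from 82.3, 83.5 and 78.1 CPM to 134, 142 and 152 CPM, by 0.81 ± 0.07 (SE, adjusted p = 6.6e-10). MMP10 rose by 2.50 ± 0.32 (SE, adjusted p = 1.1e-06) and MMP1 by 1.73 ± 0.31 (SE, adjusted p = 0.00017), both from at most 1.34 CPM, with steps of 2.17 and 1.73 under palbociclib. SERPINB2, an inhibitor of urokinase, fell by 0.85 (SE 0.10, adjusted p = 2.5e-07). The fall of MMP3 (−2.03, adjusted p = 0.0098) was lost without replicate 1 of 9 h or replicate 2 of 12 h, and that of PLAT (−0.34, adjusted p = 0.039) without any 1 library but 9 h replicate 2. YAP and TGF-beta targets were split, 4 of 16 higher and 4 lower with a median of −0.08. NT5E (0.41 ± 0.08, SE, adjusted p = 0.00038), ITGB6 (0.38 ± 0.09, SE, adjusted p = 0.0029) and TGFBI (0.28 ± 0.05, SE, adjusted p = 0.00024) were among those that rose, and CRIM1 (−0.43, adjusted p = 2.3e-06) and THBS1 (−0.40, adjusted p = 0.0018) fell, beside AXL (−0.20, adjusted p = 0.025), whose call was lost without either replicate 1, 12 h replicate 2 or the low-count filter, and TGFB2 (−0.47, adjusted p = 0.036), whose call was lost without any 1 library but 12 h replicate 3. Without 9 h replicate 1 or 12 h replicate 1 or 2, 2 of these 4 falls were called.

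Calls among cell type markers varied by list, beside 9.06% of all genes tested called higher and 6.11% lower. The 12 basal epithelial markers summed to 23630 to 24610 CPM in the 9 h libraries and 26850 to 28510 CPM at 12 h, and 5 of them rose, with a median of 0.14. KRT14, a basal keratin, was at 215, 240.0 and 199.6 CPM at 9 h and 364, 382 and 354 CPM at 12 h, a rise of 0.75 ± 0.08 (SE, adjusted p = 3.8e-08), and LAMA3 (0.41 ± 0.06, SE, adjusted p = 1.4e-05), a laminin 332 chain, rose too, as did COL17A1 (0.24 ± 0.05, SE, adjusted p = 0.00028). The 6 tested luminal markers summed to 840.8 to 867.1 CPM at 9 h and 754.4 to 792.6 at 12 h. Of them 1 was lower, MUC1 (−0.33, adjusted p = 0.013, lost without 9 h replicate 1 or 12 h replicate 2), and PGR, not tested, was at 0 counts. The 7 tested mesenchymal markers summed to 938.2 to 959.0 CPM and 1279 to 1376 CPM, and COL1A2 and COL3A1, not tested, were at 0. FN1 (0.74 ± 0.06, SE, adjusted p = 1e-10), VIM (0.31 ± 0.05, SE, adjusted p = 8.5e-05) and CDH2 (0.73 ± 0.13, SE, adjusted p = 8.8e-05) rose and DCN fell (−0.56, adjusted p = 6.5e-05), 3 and 1 of 7 tested, with a median of 0.20. Under palbociclib FN1 rose by 0.71 and CDH2 stood at 0.10 (adjusted p = 0.71). The 11 tested squamous markers summed to 154.2 to 160.6 CPM and 131.5 to 136.2 CPM, and KRT1 and LOR, not tested, were at 0. Of the 11, 2 fell, TGM1 (−0.63, adjusted p = 3e-05) and KRT10 (−0.29, adjusted p = 0.00034), with a median of −0.03. Of the 12 blood and endothelial markers 10 stayed under 10 counts in each library, and the 3 tested, CD14 (−0.26, adjusted p = 0.27), KDR (0.29, adjusted p = 0.82) and PECAM1 (−0.61, adjusted p = 0.51), did not pass. These 3 summed to 14.21 to 19.7 CPM at 9 h and 12.06 to 16.52 CPM at 12 h. Whether these marker shifts had a part in the changes of the protease and YAP lists was not tested.

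Clock genes were lower at 12 h in part. Of 15, 5 fell and 1 rose, with a median of −0.49, beside −0.95 from 6 to 9 h and 0.04 from 12 to 15 h, steps that share libraries with it. The 9 to 12 h median lay between −0.61 and −0.24 over the alternative settings. CRY1, a repressor of the clock, was at 17.7, 16.3 and 17.0 CPM at 9 h and 9.26, 9.76 and 8.65 CPM at 12 h, a change of −0.87 ± 0.11 (SE, adjusted p = 8e-07). CRY2 (−0.91 ± 0.13, SE, adjusted p = 3.7e-06), PER2 (−0.92 ± 0.17, SE, adjusted p = 0.00019), HLF (−1.45 ± 0.37, SE, adjusted p = 0.0057) and PER3 (−1.46 ± 0.25, SE, adjusted p = 5.5e-05, with exons shared with another gene) fell as well, and ARNTL, which encodes the activator BMAL1, rose by 0.54 ± 0.07 (SE, adjusted p = 2.3e-06). With palbociclib 5 members fell and 1 rose too, with a median of −0.51. CRY2 stood at 0.45 in the next step, a difference of 1.36 ± 0.23 (SE, adjusted p = 0.00073). For PER2 the same difference (1.30, adjusted p = 0.029) was lost in 7 of the 9 fits that left out 1 library of 9, 12 or 15 h.

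The largest falls by the naming rule were those of ADH1B, an alcohol dehydrogenase gene (chr4:99304964-99321401 on GRCh38), CYP3A4, CRCT1, METTL7A and BBOX1. ADH1B was at 4.27, 2.89 and 3.55 CPM at 9 h and 0.900, 0.371 and 0.303 CPM at 12 h, and its 12 h samples were all below 1 CPM. Its change was −2.73 ± 0.28 (SE, adjusted p = 7.6e-09), beside −2.16 ± 0.27 (SE, adjusted p = 1.3e-06) with palbociclib. METTL7A was at 19.3, 13.8 and 14.8 CPM at 9 h and 4.88, 3.29 and 5.08 CPM at 12 h, a change of −1.87 ± 0.14 (SE, adjusted p = 7.4e-12), beside 0.04 from 12 to 15 h, a difference of 1.91 ± 0.28 (SE, adjusted p = 8.8e-05). CRCT1, of the epidermal differentiation cluster, changed by −2.27 ± 0.27 (SE, adjusted p = 2e-07). The chloride channel gene BEST2 (−1.66), EPHB6 (−1.55), GALNT15 (−1.50), TBL1X (−1.75) and COL2A1 (−1.40) also fell. CYP3A4, BBOX1, MAP7D2, N4BP2L1 and ACSS1 fell from 1.73 CPM or less. Of these, BBOX1, MAP7D2, N4BP2L1 and ACSS1 lost their calls without 12 h replicate 2, and BBOX1 also without 9 h replicate 1, MAP7D2 without either replicate 1, and N4BP2L1 without 12 h replicate 1 or 9 h replicate 2. HSPA1B, a heat shock gene with a near-identical copy that makes its count uncertain, fell by 1.28 (SE 0.09, adjusted p = 7.4e-13).

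Signalling and growth lists changed less. Ribosome biogenesis genes fell in 9 of 33 cases and rose in 0, with a median of −0.14, and 14 fell with palbociclib. RRP12 fell by 0.40 (SE 0.07, adjusted p = 8.6e-05) and HEATR1 by 0.31 (SE 0.05, adjusted p = 7.1e-05); without replicate 1 of 9 h, 4 falls were called. Of 22 immediate early genes 1 was called, EGR3, lower (−0.86, adjusted p = 0.027), a call lost without 9 h replicate 1 or 3 or any 12 h replicate, and the list median was −0.15. This count depended on the fit, with 7 lower and 2 higher in the compared groups alone, 6 lower and 2 higher without the filter, and 2 lower with DESeq2. In the fit of all groups FOS (−0.32, adjusted p = 0.2), EGR1 (−0.28, adjusted p = 0.7) and MYC (−0.18, adjusted p = 0.28) did not pass. ERK output genes rose in 3 of 21 cases, ETV5 (0.86 ± 0.11, SE, adjusted p = 3.2e-07), ETV4 (0.63 ± 0.12, SE, adjusted p = 0.00018) and PHLDA1 (0.17, adjusted p = 0.042), with a median of 0.02, the call of PHLDA1 being lost without any 1 library but 12 h replicate 1, with library totals and without the filter. FoxO and quiescence genes rose in 2 of 26 cases and fell in 4, with a median of −0.04. TXNIP rose by 0.53 ± 0.12 (SE, adjusted p = 0.002), and MXI1 (−0.68, adjusted p = 1.5e-07), FOXO4 (−0.59, adjusted p = 0.0017), BCL6 (−0.57, adjusted p = 0.007) and MXD4 (−0.22, adjusted p = 0.0071) fell, BCL6 losing its call without 9 h replicate 3 and MXD4 without 9 h replicate 2 or without the filter. Without any 1 of 9 h replicates 1 to 3 or 12 h replicates 1 and 2, SESN1 was not called and 1 rise was left, as with size factors, library totals or DESeq2. p53 targets rose in 4 of 22 cases and fell in 1, with a median of 0.06. DDB2 (0.51 ± 0.09, SE, adjusted p = 8.3e-05) and TP53I3 (0.46 ± 0.07, SE, adjusted p = 3.3e-06) rose, and SESN1 (0.27), SESN2 (0.26) and FDXR (−0.34) lost their calls without any 1 of 5 libraries each, 2 rises being left without any of the 9 h replicates or 12 h replicate 1, and also with library totals, no filter or DESeq2.

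Glycolysis and hypoxia genes rose in 8 of 17 cases and fell in 3, with a median of 0.18. The rises were small, from 0.18 for GAPDH to 0.26 for VEGFA, and 1 to 5 of them were called without 9 h replicate 1 or 3 or any of the 12 h replicates, and 3 without the low-count filter. HK2, hexokinase 2, fell by 0.44 (SE 0.07, adjusted p = 8.6e-06), and PFKFB3 (−0.24, adjusted p = 0.0039) and ANKRD37 (−0.64, adjusted p = 0.042) fell, with 1 fall called without 9 h replicate 1. ANKRD37 lost its call without any 1 library but 12 h replicate 3, without the filter, in the compared groups alone and with DESeq2 (adjusted p of 0.06 to 0.25). NRF2 target and pentose phosphate genes rose in 2 of 14 cases, among them TALDO1 (0.17, adjusted p = 0.047), with a median of 0.10 and with 0 or 1 called in 5 of the 6 fits that left out 1 library, 1 with size factors, 0 without the filter and 4 in the compared groups alone. Interferon genes rose in 1 of 23 cases, OAS3 (0.31, adjusted p = 0.0035), with a median of −0.05. NF-kB cytokine genes rose in 2 of 14 cases, CSF3 (0.52 ± 0.10, SE, adjusted p = 0.00029) and IL1A (0.30 ± 0.08, SE, adjusted p = 0.0076), and CCL20 fell (−0.68, adjusted p = 0.0068), a call lost without 12 h replicate 1, with a median of −0.02.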

How the data were processed

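Poly(A) RNA was sequenced as stranded single-end libraries, per the labels' protocols. The submitters' processing notes name Subread 1.5.1, Bowtie2 2.2.9, TopHat2 2.1.1 and the build GRCh38.p7. The deposited files hold raw counts by gene name, made with featureCounts 1.5.1 and GENCODE 25 and without a strand option, per the file headers. Genes that overlap another gene or have near-identical copies are therefore uncertain, and 178 names span more than 1 chromosome. Groups came from the labels.

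Counts of 31 libraries (10342358 to 20878364 each) were fitted together by edgeR 4.0.16 (R 4.3.3), with TMM factors, filterByExpr by group (15787 of 34335 gene names with a count), and quasi-likelihood tests with Benjamini-Hochberg adjustment over these genes, called below 0.05. The common biological coefficient of variation was 6.55%, with 20 residual degrees of freedom. Standard errors were derived from the log2 fold change and its F statistic. Alternatives were DESeq2 1.42.0, other scalings, no filter, fewer groups, a replicate block, exon length trends removed and leaving out each library.

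The comparison and the 36 gene lists (651 genes) were chosen with earlier results of these data known. Named genes are the 15 largest rises and falls, the 8 largest step differences, the 5 largest changes of pace each way, the 4 called members of each list with the smallest p each way, and 16 preset cell cycle and early genes. Outside the lists and preset genes, named genes had mean log2 CPM no lower than 1. Further list members are named to account for the lists and were chosen after their values were seen. Promoters are from RefSeq. Some named genes are not reported here.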

Additional observations from a re-analysis of the deposited data

Results flagged for a closer look

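The step from 9 to 12 h differed between DMSO and palbociclib, by the test of the difference itself, for 272 genes higher with DMSO and 3 lower. The 8 largest called differences on the log2 scale were those of SPC25 (4.19), SPC24 (3.72), MYBL2 (3.72), AURKB (3.72), NEK2 (3.68), MND1 (3.65), SKA3 (3.57) and SKA1 (3.49). SPC24 and SPC25 encode subunits of the NDC80 kinetochore complex, SKA1 and SKA3 of the SKA complex, AURKB and NEK2 mitotic kinases, and MND1 a recombination factor. These genes had few counts with palbociclib, summed over 3 libraries at 9 h and at 12 h: 5 and 5 for SPC25, 19 and 9 for SPC24, 11 and 11 for MYBL2, 10 and 4 for AURKB, 19 and 6 for NEK2, 14 and 7 for MND1, 31 and 18 for SKA3, and 19 and 19 for SKA1. The sizes of these differences therefore depend on the fit's prior count. With DMSO the same sums went from 35 to 407 for SKA1 and from 107 to 1427 for MYBL2. The difference of AURKB was not called in 8 of the 12 fits that left out 1 library. That of SPC25 was not called in the fit of the compared groups alone or without DMSO 9 h replicate 1, palbociclib 9 h replicate 1 or 2 or palbociclib 12 h replicate 1, and that of MYBL2 without palbociclib 9 h replicate 1 or 3 or 12 h replicate 3.

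In the other direction the differences were small: −0.45 for ATG14, −0.34 for KDM5B and −0.32 for MXD4. ATG14 rose with palbociclib, by 0.39 ± 0.08 (SE, adjusted p = 0.00075), and stood at −0.06 (adjusted p = 0.72) with DMSO. KDM5B was at 255, 247 and 258 CPM at 9 h and 212, 204 and 222 CPM at 12 h with DMSO, where it fell by 0.25 (SE 0.05, adjusted p = 0.0011), and at 0.09 (adjusted p = 0.35) with palbociclib. MXD4 fell with DMSO (−0.22, adjusted p = 0.0071) and stood at 0.10 (adjusted p = 0.26) with palbociclib. The difference of ATG14 was not called without DMSO 12 h replicate 2, DMSO 9 h replicate 3, palbociclib 12 h replicate 2 or palbociclib 9 h replicate 3, in the compared groups alone or with DESeq2. That of MXD4 was not called without DMSO 9 h replicate 2, DMSO 12 h replicate 2 or 3, palbociclib 12 h replicate 1 or palbociclib 9 h replicate 3. Those of all 3 genes were not called without the filter on low counts.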

How the results depend on the processing

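Of the genes that rose and fell from 9 to 12 h, DESeq2 gave 1368 and 980 and size factors 1396 and 1002. Library totals gave 1354 and 1257, no filter 1022 and 672, removed exon length trends 1447 and 999, and the compared groups alone 1651 and 1043. For the 9 to 12 h step with DMSO, no gene called in the reported fit was called the other way in an alternative fit. No named gene called in that step changed sign. Changes of direction were not counted over all genes for the other comparisons. Values that were not called could change sign: CDKN1B was at −0.07 without 9 h replicate 1. The medians of the ERK output (−0.006), luminal (0.029), NF-kB (0.024), purine and pyrimidine (−0.002) and squamous (0.128) lists, all near 0 in the reported fit, crossed it without 1 library. Leaving out 1 library gave 1032 to 1235 rises and 554 to 781 falls, with 554 without 9 h replicate 1. For palbociclib the ranges were 518 to 643 rises and 679 to 800 falls, lowest without 9 h replicate 1. For the difference of treatments they were 231 to 254 genes higher and 2 to 6 lower. The difference from the step before gave 408 to 619 higher and 351 to 642 lower, lowest without 9 h replicate 3 and 1. That of the step after gave 10 to 25 higher and 74 to 109 lower, both lowest without 12 h replicate 1. Genes lower in the difference of treatments numbered 5 with size factors, 5 with library totals and 15 without the filter, and without it 422 genes were higher and 431 lower against the step before. The cause was not tested.

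Samples with the same replicate number had correlated deviations of 0.0455, 0.341 and 0.215 for replicates 1 to 3. The value was −0.25 for 9 h replicate 2 with 12 h replicate 3, and −0.263 for 9 h replicate 3 with 12 h replicate 2. Replicates 2 and 3 thus shared deviations across the times. For replicate 1 this was not clear, since 12 h replicate 1 went slightly more with 9 h replicate 3 (0.0475), and the reported fit did not pair the samples. A replicate block in all 31 libraries gave 1663 rises and 1173 falls, 5 genes lower in the difference of treatments and 44 higher in the step after. The block with the compared groups alone gave 2820 rises and 2159 falls. It gave 1665 and 1673 for palbociclib, 6 genes lower in the difference of treatments, 1520 and 1568 against the step before, and 255 and 574 for the step after. By list it gave 13 immediate early genes lower and 3 higher, 18 nuclear pore genes higher and 3 lower, 23 ribosome biogenesis genes lower, 11 ATF4 and unfolded protein response genes higher and 3 cyclin and kinase genes lower, CCND1 among them (adjusted p = 3.8e-06). Depth limits genes below about 1 CPM, many of them mitotic, whose palbociclib steps rest on a few counts.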

Other observations

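Some genes outside the cell cycle rose at least 2-fold with both treatments and were singled out after their values were seen. SNRPA, a U1 snRNP protein gene, went from 14.7 to 44.6 CPM with DMSO and started from 15.8 CPM with palbociclib, with log2 fold changes of 1.59 ± 0.09 and 1.40 ± 0.09 (SE, adjusted p = 1e-14 and 3.3e-12). FBN1, fibrillin 1 of microfibrils, rose by 1.18 ± 0.10 and 1.27 ± 0.10 (SE, adjusted p = 1.8e-10 and 5.1e-10), from 9.06 to 20.5 CPM with DMSO. EFR3B (1.68 and 1.78), CHRNA9, a nicotinic receptor subunit (1.56 and 1.59), ETV1, an ETS factor (1.66 and 1.38), NREP (1.38 and 1.37) and TPRG1 (1.11 and 1.35) were called with both treatments. NEIL3 had 0 counts at 9 h with palbociclib, so no fold is given for it.

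Among the shared falls were AQP3, an aquaglyceroporin gene, which went from 84.3 to 32.3 CPM with DMSO and from 94.1 to 31.9 CPM with palbociclib, and the histone deacetylase gene HDAC5, which went from 14.7 to 5.76 CPM and from 14.2 to 4.99 CPM. Their log2 fold changes were −1.38 ± 0.08 and −1.56 ± 0.08 (SE) for AQP3 and −1.35 ± 0.09 and −1.51 ± 0.09 (SE) for HDAC5, with adjusted p-values of 4e-14, 6.4e-14, 4.5e-13 and 1.6e-12. The 3 libraries of each group are the n of each value.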
